A study of Homo sapiens with 9 samples.

Results

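The nuclear-encoded subunits of the respiratory chain were followed in U2OS, an osteosarcoma cell line of human origin, after knockdown of the NF-kB genes NFKB2 or RELB. Members were taken by gene symbol: the NDUFA, NDUFB, NDUFC, NDUFS and NDUFV series with NDUFAB1 for complex I, SDHA to SDHD for complex II, UQCR genes with CYC1 for complex III, the ubiquitous COX subunit genes for complex IV and the ATP5F1, ATP5M and ATP5P series for complex V. This gave 79 of the 44608 entries in each count table, of which 37 belong to complex I, 4 to complex II, 9 to complex III, 10 to complex IV and 18 to complex V. NDUFA4, which carries a complex I name but is also assigned to complex IV, was kept apart. The groups were 3 libraries from cells given an siRNA to NFKB2 (siNFKB2), 3 from cells given an siRNA to RELB (siRELB) and 3 from cells that received a non-silencing control siRNA (siNS). All were U2OS cultures in high-glucose medium with serum and pyruvate, transfected with a lipid reagent at 75 nM siRNA and lysed after 48 h, so the siNS cells also carried siRNA and reagent. The labels name neither the siRNA sequences nor how many siRNAs were used for each gene, and they do not say whether replicates are separate cultures. The p-values therefore refer to the spread among these libraries, which may be technical.

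The respiratory chain sits in the inner mitochondrial membrane. Complex I (NADH dehydrogenase) and complex II (succinate dehydrogenase, also an enzyme of the tricarboxylic acid cycle) pass electrons to ubiquinone, complex III passes them to cytochrome c and complex IV to oxygen, and complex V (ATP synthase) makes ATP from the proton gradient. Most subunits are encoded in the nucleus, and the few encoded in mitochondrial DNA were not analysed here. The transcription factors NRF1 and GABP are known to bind the promoters of many of these nuclear genes. NFKB2 encodes a precursor processed to the p52 subunit, and RELB encodes its partner in the non-canonical NF-kB pathway.

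Because the members are known for shared promoter elements, the 250 bases before the RefSeq start (GRCh38.p14) are shown for the 6 members called in any comparison. Capitals mark matches, on either strand, to the letters GCGCANGCG for NRF1, CCGGAAG for the ETS family of GABP or ATGGCGGC for YY1; all capitals here are NRF1 matches. Each sequence reads 5′ to 3′ on the gene's own strand.
UQCRFS1, chr19:29213152-29213401, minus strand: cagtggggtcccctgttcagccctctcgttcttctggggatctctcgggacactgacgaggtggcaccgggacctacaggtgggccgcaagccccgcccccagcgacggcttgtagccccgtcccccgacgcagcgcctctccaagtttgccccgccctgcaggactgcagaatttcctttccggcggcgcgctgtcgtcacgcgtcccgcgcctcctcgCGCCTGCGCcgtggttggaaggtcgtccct
SDHA, chr5:218070-218319, plus strand: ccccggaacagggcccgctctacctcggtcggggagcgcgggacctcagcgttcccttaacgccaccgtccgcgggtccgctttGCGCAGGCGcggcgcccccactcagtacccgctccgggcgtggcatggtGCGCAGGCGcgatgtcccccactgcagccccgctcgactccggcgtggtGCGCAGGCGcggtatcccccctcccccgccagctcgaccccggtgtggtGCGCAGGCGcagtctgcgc
ATP5PO, chr21:33915805-33916054, minus strand: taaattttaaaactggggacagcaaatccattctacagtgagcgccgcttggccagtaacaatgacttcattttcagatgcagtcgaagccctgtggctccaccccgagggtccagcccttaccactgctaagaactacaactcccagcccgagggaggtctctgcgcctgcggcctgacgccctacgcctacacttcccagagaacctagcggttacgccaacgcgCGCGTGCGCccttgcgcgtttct
NDUFV2, chr18:9102449-9102698, plus strand: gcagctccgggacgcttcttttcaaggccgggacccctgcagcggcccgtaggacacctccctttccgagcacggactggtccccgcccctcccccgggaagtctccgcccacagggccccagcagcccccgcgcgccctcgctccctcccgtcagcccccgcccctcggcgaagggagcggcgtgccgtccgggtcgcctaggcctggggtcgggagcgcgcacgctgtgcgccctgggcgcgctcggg
NDUFV3, chr21:42893059-42893308, plus strand: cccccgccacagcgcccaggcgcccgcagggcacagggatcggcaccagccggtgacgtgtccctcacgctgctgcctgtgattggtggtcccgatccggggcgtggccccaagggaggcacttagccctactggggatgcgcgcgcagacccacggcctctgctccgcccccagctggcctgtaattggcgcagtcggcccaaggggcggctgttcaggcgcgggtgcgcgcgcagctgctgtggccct
ATP5MC1, chr17:48892537-48892786, plus strand: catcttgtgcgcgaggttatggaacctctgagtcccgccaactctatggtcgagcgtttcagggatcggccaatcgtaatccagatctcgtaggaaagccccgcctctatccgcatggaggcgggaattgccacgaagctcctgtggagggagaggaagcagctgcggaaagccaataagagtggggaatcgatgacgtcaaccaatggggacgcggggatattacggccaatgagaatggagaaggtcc
SDHA held 4 NRF1 matches, UQCRFS1 and ATP5PO held 1 each, and NDUFV2, NDUFV3 and ATP5MC1 held none. A promoter of this kind was found for 62 of the 79 members. Of these, 19 (30.6%) held the NRF1 letters, against 12.5% of the 10956 tested genes with a promoter and 7.02% of all 27305 promoters. The ETS letters were in 16 (25.8%), against 15% of tested genes and 8.82% of all promoters. The YY1 letters were in 2 (3.23%), against 1.92% and 1.34%. Each set of letters was searched on its own, so matches to different sets may overlap. The NF-kB consensus was in 3 of the 62 (4.84%), among them ATP5MC1, against 6.02% of tested genes and 5.05% of all promoters. These matches describe letters in a window and are not binding sites.

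Total counts per library were between 15011789 and 19279572, and the members took between 0.921% and 1.30% of them. NFKB2 averaged 25.5 ± 21.7 CPM (counts relative to the TMM-scaled library size) in siNFKB2 and 108.1 ± 24.2 CPM in siNS (SD, n = 3 each; log2 fold change -2.09, edgeR adjusted p 0.021), but was uneven in siNFKB2, at 5.26, 22.9 and 48.4 CPM. RELB averaged 4.23 ± 1.40 CPM in siRELB and 27.2 ± 8.92 CPM in siNS (log2 fold change -2.69, edgeR adjusted p 0.00881). The mesenchymal markers VIM and SPARC were above 1300 CPM on average in each group, while the mature bone markers SP7 and BGLAP had at most 1 count in a library and the blood marker CD3E had none. Replicate 1 of siRELB and of siNS stood apart: siRELB replicate 1 was the lowest library for 35 of 73 members tested and siNS replicate 1 for 15. By this measure siNFKB2 replicate 1 did not, being lowest for 8 members beside 7 for siNFKB2 replicate 3. The highest library was siNS replicate 2 for 46 members. Mitochondrial rRNA also differed between libraries, at 0.519%, 1.01% and 2.68% of counts in siNFKB2, 0.379%, 0.653% and 0.856% in siRELB, and 0.406%, 1.33% and 0.630% in siNS. Its part in the results was not tested apart from a fit with it as a covariate.

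Of the 79 members, 73 had enough counts to be tested. The other 6 had at most 1 count over all 9 libraries together: NDUFS1, NDUFS3, NDUFA3 and NDUFA6 of complex I, the core protein gene UQCRC2 of complex III and ATP5MGL of complex V. The first 5 of these are among the 6 members whose symbol is also listed with a suffix for further placements, and the extra entries held 0 counts as well; the remaining 1, NDUFA10, was counted at 83.5 to 119 CPM. Of the 73 members without such entries ATP5MGL alone was this low. A count of 0 allows up to 3 counts, or 0.156 CPM in the library with most counts and more in the others. No level or fold is given here for the first 5 because the counting of such symbols is not described. None is given for ATP5MGL because it had 1 count in all. In addition, 46 members have pseudogenes named after them (160 in all in GENCODE 29), 32 overlap a gene on the opposite strand and 24 a gene on the same strand, and how the authors' counting shared such reads is not given in the sources used here.

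Subunits of 1 complex differed widely in level. Set per kilobase of transcript in siNS, the median was 93.5 CPM per kb for complex I, 127 for complex II, 221 for complex III, 300.2 for complex IV and 238 for complex V. The highest levels were those of COX8A (540.0 ± 177 CPM per kb, SD, n = 3), a small accessory subunit of complex IV, COX4I1 (505 ± 169), a regulatory subunit of the same complex, and ATP5F1B (497 ± 19.3), the catalytic beta subunit of ATP synthase; the differences among these were smaller than the SD of COX8A or COX4I1. Within complex I the range was 55.0-fold, with NDUFS5 at 481 CPM per kb and NDUFV3 at 8.75. The ranges and ranks per kb depend on the transcript lengths used, here 546 bases for NDUFS5 and 3125.5 for NDUFV3. Which transcripts of each gene were present in these cells was not tested. SDHC, for example, was the highest gene of complex II per kb, at 160, but the lowest in CPM, at 73.8. The lowest member of complex III was UQCRFS1 at 30.4 ± 2.60 CPM per kb, the Rieske iron-sulfur protein, which is the electron-carrying subunit that reaches cytochrome c1, and the highest was UQCRH at 332. Apart from complex II with its 4 genes and 2.22-fold range, complex IV was the most even, with a 3.00-fold range down to COX6A1 at 180 CPM per kb, and complex V ran down to ATP5ME at 59.6. Without setting by length, the highest mean levels in siNS were 282 CPM for NDUFB9 in complex I, 156 for SDHB in complex II, 362 for CYC1 in complex III, 401 for COX4I1 in complex IV and 913 for ATP5F1B in complex V, and the lowest were 21.4 for NDUFC2, 73.8 for SDHC, 75.5 for UQCR11, 103 for COX6A1 and 21.8 for ATP5ME.

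**Figure D1:**
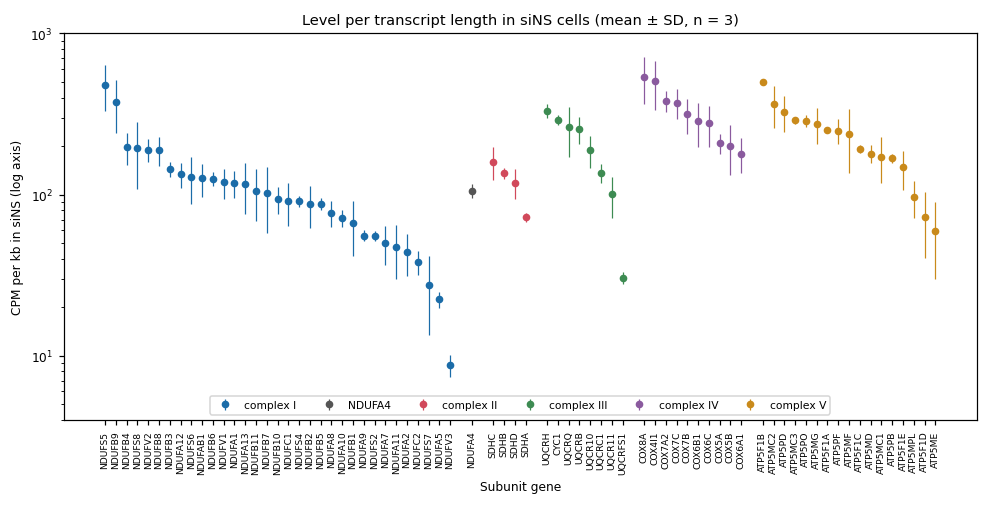
Mean level of each of the 73 tested subunit genes in the 3 siNS libraries, in CPM per kb of transcript on a log axis, with the SD as bars and the complexes in colour. Complex IV genes lie between 180 and 540.0 CPM per kb, while complex I genes spread over a 55.0-fold range down to NDUFV3. Both ranges depend on the transcript lengths used.

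After NFKB2 knockdown, 5 of 73 subunit genes fell and none rose (edgeR quasi-likelihood test, adjusted p below 0.05 over all 14815 genes tested). Over all genes tested 26.1% were called, 12.6% as higher and 13.5% as lower, so the members' 6.85% lay below the background. The 5 genes came from 4 complexes: NDUFV2 and NDUFV3 from complex I, SDHA from complex II, UQCRFS1 from complex III and ATP5PO from complex V. None of the 10 genes of complex IV was called in this fit. COX5B and COX8A of complex IV were called lower without siNS replicate 1 (edgeR adjusted p 0.00779 and 0.0397), but not without siNS replicate 2. In bulk RNA, fewer cells of a kind and less RNA per cell cannot be told apart.

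UQCRFS1 had 77.0, 73.1 and 69.6 CPM in siNFKB2, against 98.6, 115.7 and 102.1 CPM in siNS. All siNFKB2 libraries were below all siNS libraries, and the siRELB libraries, at 92.0, 101.9 and 104.0 CPM, lay in the siNS range or just under it. The log2 fold change of siNFKB2 against siNS was -0.53 (95% interval -0.77 to -0.28, edgeR adjusted p 0.0065), and this call was kept in all 21 alternative fits.

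In the NADH-oxidising tip of complex I, NDUFV2, an iron-sulfur subunit, had 131.4, 124.4 and 125.3 CPM in siNFKB2, against 143.8, 198.5 and 187.5 CPM in siNS (log2 fold change -0.48, SE 0.140, edgeR adjusted p 0.0306). NDUFV3, an accessory subunit of the same tip and a weakly expressed gene, had 18.7, 18.7 and 21.6 CPM in siNFKB2, against 22.4, 30.6 and 28.98 CPM in siNS (log2 fold change -0.47, SE 0.147, edgeR adjusted p 0.0376). Neither gene's groups overlapped, and for both genes siNS replicate 1 was the siNS library nearest to siNFKB2. Another subunit of that tip is NDUFV1, which holds the flavin that takes electrons from NADH. It had 139.2, 155.6 and 134.9 CPM in siNFKB2, against 137.3, 212.0 and 191.9 CPM in siNS. The groups overlapped and NDUFV1 was not called (log2 fold change -0.33, edgeR adjusted p 0.138). It was called lower without siNS replicate 1 (edgeR adjusted p 0.00747), without the 3 libraries numbered 1 (0.00314) and with a term for the replicate number (0.0445). No complex I gene was called without siNS replicate 2 (20.1% of all genes called).

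SDHA, the flavoprotein of complex II that oxidises succinate, had 122.5, 127.7 and 100.8 CPM in siNFKB2, against 140.8, 154.1 and 161.0 CPM in siNS (log2 fold change -0.38, SE 0.117, edgeR adjusted p 0.0378). Its iron-sulfur partner SDHB had 148.2, 143.2 and 130.0 CPM in siNFKB2, against 142.4, 159.8 and 166.4 CPM in siNS, and these overlapped (log2 fold change -0.15, edgeR adjusted p 0.344). ATP5PO, which joins the catalytic head of ATP synthase to its peripheral stalk, had 217.9, 214.5 and 201.3 CPM in siNFKB2, against 247.6, 291.9 and 263.4 CPM in siNS (log2 fold change -0.34, SE 0.102, edgeR adjusted p 0.0318). For SDHA and ATP5PO every siNFKB2 library was below every siNS library. The calls of NDUFV2, NDUFV3, SDHA and ATP5PO were kept in 15, 12, 11 and 13 of 21 alternative fits and each was lost on leaving out siNFKB2 replicate 2, siRELB replicate 3, siNS replicate 2 or siNS replicate 3, with adjusted p values between 0.0522 and 0.137.

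Most members had small fitted differences. Of the 73, 69 had a log2 fold change between -0.5 and 0.5 and 68 had a 95% interval within 1 log2 unit either side of 0. The median was -0.08, against -0.00 for all genes tested, with 52 members below 0 (71.2%, against 50.3% of all genes tested) and 21 above. By complex the medians were -0.09, -0.16, -0.15, -0.07 and 0.01 for complexes I to V. The siNFKB2 libraries were all below the siNS libraries for 8 of 73 members (11%), against 18.6% of all genes tested, and all above for no member, against 18.8%. The 3 of these 8 that were not called were NDUFB6, UQCR10 and ATP5F1C. The most negative value of all belonged to NDUFS7, the subunit that hands electrons to ubiquinone, with 12.9, 23.7 and 17.7 CPM in siNFKB2, against 12.1, 33.6 and 40.5 CPM in siNS; its groups overlapped (log2 fold change -0.66, 95% interval -1.48 to 0.16, edgeR adjusted p 0.214). NDUFB11 (-0.54) and NDUFB7 (-0.52), accessory subunits of the membrane arm, were likewise spread over the siNS libraries and not called. NDUFS7, NDUFB11 and NDUFB7 were called lower without siNS replicate 1 (edgeR adjusted p 0.00528, 0.00514 and 0.00702), but not without siNS replicate 2. At the other end, ATP5ME (log2 fold change 0.32), ATP5MF (0.29), NDUFB2 (0.26), NDUFC1 (0.23) and ATP5MC1 (0.17) had positive values with adjusted p of 0.47 or more.

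**Figure D2:**
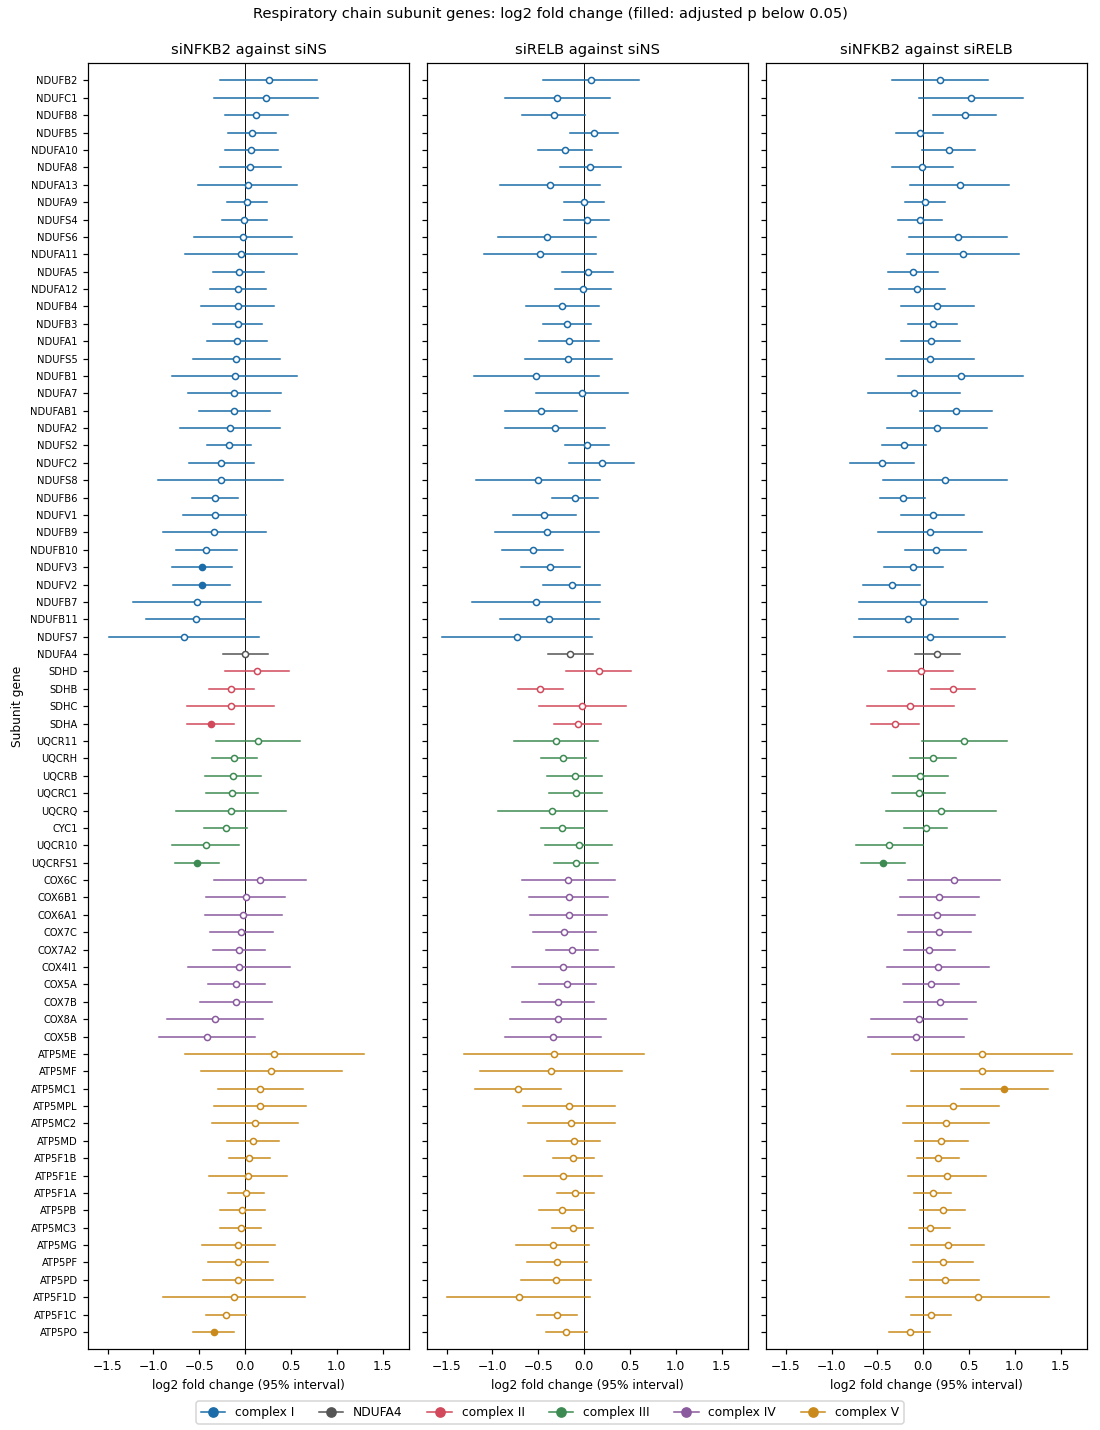
Log2 fold change of each of the 73 tested subunit genes (rows, grouped by complex and sorted by the siNFKB2 against siNS value) with its 95% interval, in 3 comparisons; filled points have an edgeR adjusted p below 0.05. Filled points number 5 for siNFKB2 against siNS, 0 for siRELB against siNS and 2 for siNFKB2 against siRELB.

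After RELB knockdown no subunit gene passed the threshold, and 8 of 73 were at an unadjusted p below 0.05, against 16.8% of all genes tested. Calls were rare over the whole table too, at 2.02% of all genes tested, 1.21% as higher and 0.810% as lower; DESeq2 called 3 of 73 members, all lower, and 6.01% of all genes. The members nonetheless lay mostly on the low side: 65 of 73 had a negative log2 fold change and the median was -0.22, against -0.02 for all genes tested. All 8 tested genes of complex III, all 10 of complex IV and all 17 of complex V had negative values, beside 26 of 33 in complex I and 3 of 4 in complex II. The medians were -0.24, -0.05, -0.16, -0.20 and -0.24 for complexes I to V. The siRELB libraries were all below the siNS libraries for 9 members (12.3%), close to the 10.2% of all genes tested, and all above for none, against 12.3% of all genes.

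SDHB was the member nearest to a call. It had 118.3, 114.7 and 103.2 CPM in siRELB, against 142.4, 159.8 and 166.4 CPM in siNS, without overlap (log2 fold change -0.48, 95% interval -0.72 to -0.23, edgeR adjusted p 0.059). NDUFB10, an accessory subunit of the membrane arm of complex I, had 42.5, 46.2 and 45.5 CPM in siRELB, against 51.2, 72.6 and 73.9 CPM in siNS (log2 fold change -0.56, edgeR adjusted p 0.0965). ATP5MC1, a gene of the membrane ring of ATP synthase, had a log2 fold change of -0.72 (edgeR adjusted p 0.12). It was called lower without siNS replicate 1 (adjusted p 0.0159), with the GC and length trend removed (0.0148), with mitochondrial rRNA as a covariate (0.0187), without a filter (0.031) and by DESeq2 (0.0275). SDHB was called lower with the GC and length trend removed (0.0393) and without siNS replicate 1 (0.0152), and NDUFB10 without siNS replicate 1 (0.00641). No member was called without siNS replicate 2 or 3, without siRELB replicate 1, 2 or 3, or with only the 6 libraries compared. In those fits 0.0986% to 1.22% of all genes were called, and ATP5MC1 had an edgeR adjusted p of 0.173 to 0.336. Other strongly negative values belonged to genes whose siNS libraries were themselves far apart. ATP5F1D, the delta subunit in the central stalk of ATP synthase, had 26.4, 37.5 and 28.8 CPM in siRELB, against 25.2, 62.5 and 64.7 CPM in siNS, so siNS replicate 1 was below every siRELB library (log2 fold change -0.71, edgeR adjusted p 0.338). NDUFS7 (-0.73) had the same arrangement, with 16.6, 19.03 and 16.2 CPM in siRELB and 12.1 CPM in siNS replicate 1, and NDUFB7 (-0.52) did as well, with its siNS libraries at 27.0, 70.8 and 65.9 CPM. The few positive values were small, with NDUFC2 at 0.19, SDHD at 0.16, NDUFB5 at 0.11 and NDUFB2 and NDUFA8 at 0.07.

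The count after RELB knockdown depended on siNS replicate 1. Without that library 17 members were called lower (23.3%), against 5.81% of all genes tested, and without the 3 libraries numbered 1 there were 27 (37.0%), against 11.7%. None was called higher in either fit. In the fit without the 3 libraries numbered 1, the 27 were 17 of 33 genes of complex I, 1 of 4 in complex II, 1 of 8 in complex III, 2 of 10 in complex IV and 6 of 17 in complex V, and the smallest adjusted p values were those of ATP5F1D (log2 fold change -0.94, edgeR adjusted p 0.000547), NDUFB7 (-0.79, 0.000716) and NDUFB10 (-0.68, 0.000862). The siNFKB2 counts moved the same way, to 14 lower without siNS replicate 1 (19.2%, against 16.4% of all genes tested) and 17 lower without the 3 libraries numbered 1 (23.3%, against 23.2%). Without siNS replicate 2 the siRELB count was 0, as in the fit of all libraries (0.396% of all genes called, members' median -0.10), and the siNFKB2 count was 1 (20.1% of all genes called, members' median 0.04).

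Set directly against each other, siNFKB2 and siRELB differed in 2 of 73 members (2.74%), against 26.6% of all genes tested, 12.2% as higher and 14.3% as lower. ATP5MC1, which encodes a precursor of subunit c, the ring that turns in the membrane part of ATP synthase, had 90.4, 110.01 and 112.2 CPM in siNFKB2, against 47.2, 64.9 and 56.7 CPM in siRELB. The groups were apart, and the siNS libraries, at 68.9, 125.3 and 84.5 CPM, overlapped the siNFKB2 range and lay above all siRELB libraries. The log2 fold change of siNFKB2 against siRELB was 0.89 (95% interval 0.42 to 1.36, edgeR adjusted p 0.0123), and the call was kept in all 21 alternative fits. The genes ATP5MC2 and ATP5MC3 encode the same mature subunit c. ATP5MC2 had 265.3, 340.0 and 354.0 CPM in siNFKB2, against 213.9, 299.8 and 294.7 CPM in siRELB, with overlap (log2 fold change 0.25, 95% interval -0.23 to 0.72, edgeR adjusted p 0.427). ATP5MC3 had 239.0, 252.6 and 214.5 CPM in siNFKB2, against 220.5, 232.3 and 217.8 CPM in siRELB (log2 fold change 0.07, 95% interval -0.15 to 0.30, edgeR adjusted p 0.624). Per kilobase, ATP5MC1 was at 193 CPM per kb in siNFKB2 and 104.5 in siRELB, ATP5MC2 at 394 and 332, and ATP5MC3 at 279.6 and 265.5 in the same groups, so ATP5MC1 was the lowest of the trio in both. A difference between ATP5MC1 and the other 2 genes was not tested, and 7 pseudogenes are named after ATP5MC1.

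UQCRFS1 was the other called member, lower in siNFKB2 than in siRELB (log2 fold change -0.44, 95% interval -0.68 to -0.20, edgeR adjusted p 0.0151). This call was kept in 17 of 21 alternative fits and was lost without siNFKB2 replicate 2 or 3 or siRELB replicate 2 or 3, at adjusted p values of 0.0555 to 0.070. Of the remaining members, NDUFC2 (-0.45), UQCR10 (-0.37), NDUFV2 (-0.34) and SDHA (-0.30) had the most negative values and ATP5MF (0.65), ATP5ME (0.65), ATP5F1D (0.60) and NDUFC1 (0.52) the most positive, none of them called. The median over the 73 was 0.11, against 0.02 for all genes tested. With the GC and length trend removed it was 0.02, against 0.03 for all genes, and with mitochondrial rRNA as a covariate it was 0.00, against -0.01. Complex V had the highest median, 0.23, with 16 of 17 genes above 0 (94.1%, against 51.7% of all genes tested). With the GC and length trend removed the complex V median was 0.19, with 1 of 17 genes below 0. The siNFKB2 libraries were all above the siRELB libraries for 6 members (8.22%), against 22.3% of all genes tested, and all below for 9 (12.3%), against 23.6%.

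**Figure D3:**
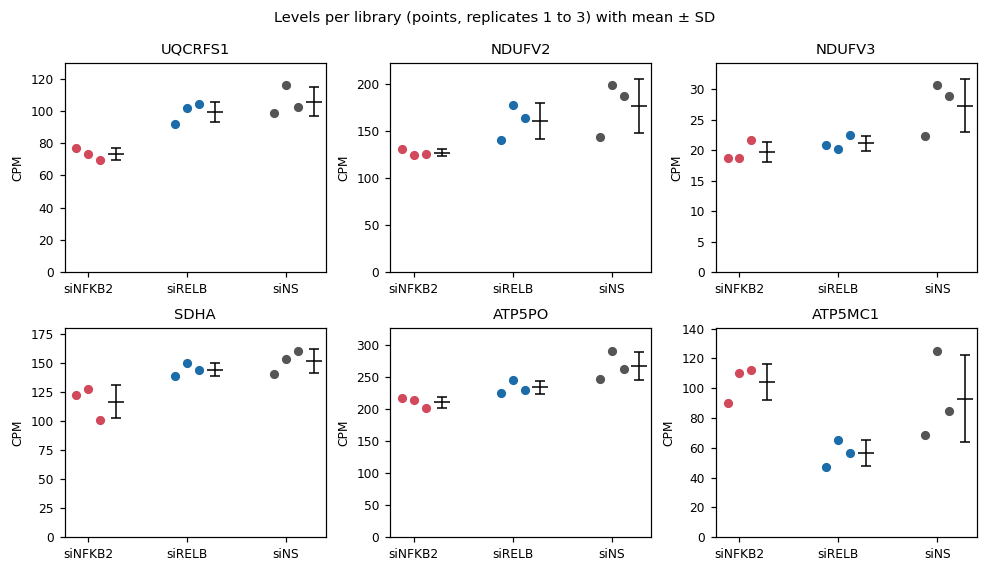
Level in CPM of the 6 members called in any comparison, with siNFKB2, siRELB and siNS from left to right, replicates 1 to 3 as points and mean ± SD beside them; axes start at 0. UQCRFS1 is at 69.6 to 77.0 CPM in siNFKB2 and 98.6 CPM or more in siNS, and ATP5MC1 is at most 64.9 CPM in siRELB.

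The subunit genes shifted together from library to library within groups. Taking each gene's log2 level relative to its siNS mean, the median over the 73 members was -0.20, 0.01 and -0.05 in siNFKB2 replicates 1 to 3, -0.38, -0.06 and -0.16 in siRELB, and -0.33, 0.28 and 0.04 in siNS. The siNS libraries thus spread over more than either knockdown, and the median coefficient of variation of a member was 10.02% in siNFKB2, 10.95% in siRELB and 21.4% in siNS. Complex IV had the widest spread in siNS, with medians of -0.38, 0.38 and 0.05. Complex II did not follow the others: its medians were 0.05, -0.19 and -0.33 in siNFKB2, 0.08, -0.09 and -0.14 in siRELB, and 0.08, -0.10 and 0.08 in siNS. The summed level of all members was 10801 ± 718 CPM in siNFKB2, 9959 ± 806 CPM in siRELB and 11476 ± 1855 CPM in siNS (SD, n = 3 each), differences smaller than the SD of the siNS libraries.

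**Figure D4:**
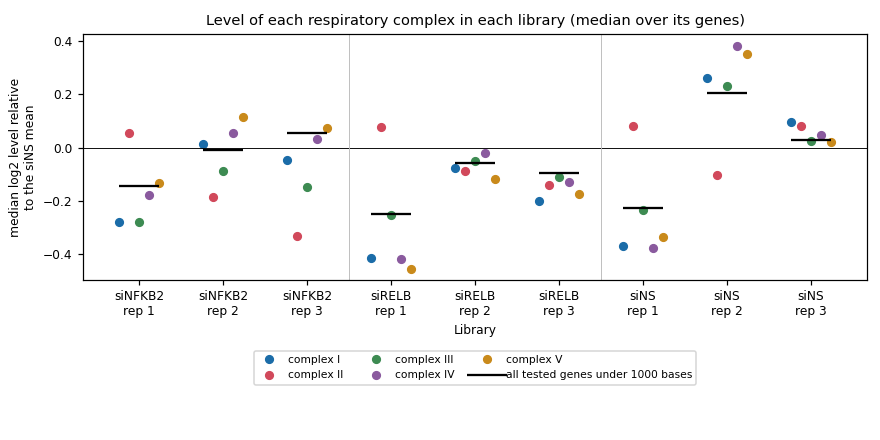
Median log2 level of the genes of each complex in each library, relative to the siNS mean, with a black bar for all tested genes under 1000 bases; libraries run from siNFKB2 through siRELB to siNS. Complexes I, III, IV and V are lowest in replicate 1 within each group and high in siNS replicate 2, and so are the short genes as a whole.

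Most subunit transcripts are short, and short transcripts as a class were also lowest in replicate 1 within each group and high in siNS replicate 2. The median transcript length was 750 bases for the 73 members and 2522 bases for all tested genes, and 71.2% of the members were under 1000 bases, against 10.5% of all tested genes with a length. For siRELB against siNS the median log2 fold change was -0.18 over the 1415 tested genes under 1000 bases, -0.08 at 1000 to 2000 bases, -0.00 at 2000 to 4000 bases and 0.08 at 4000 bases or more. The 52 members under 1000 bases had a median of -0.22 and the 21 longer members of -0.21 in that comparison. For siNFKB2 against siNS the median was -0.08 for the shorter members, against -0.04 for all tested genes under 1000 bases. It was -0.14 for the longer members. All tested genes had medians of -0.04 at 1000 to 2000 bases, -0.01 at 2000 to 4000 bases and 0.05 at 4000 bases or more. When the GC and length trend of each library was removed, the members' median for siRELB against siNS was -0.08 and 56 of 73 members were below 0, against a median of -0.01 for all genes tested. In the same fit the members' median was -0.06 for siNFKB2 against siNS, against 0.02 for all genes tested. Over the libraries, the median of tested genes under 1000 bases was -0.14, -0.01 and 0.06 in siNFKB2, -0.25, -0.06 and -0.10 in siRELB, and -0.23, 0.20 and 0.03 in siNS.

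**Figure D5:**
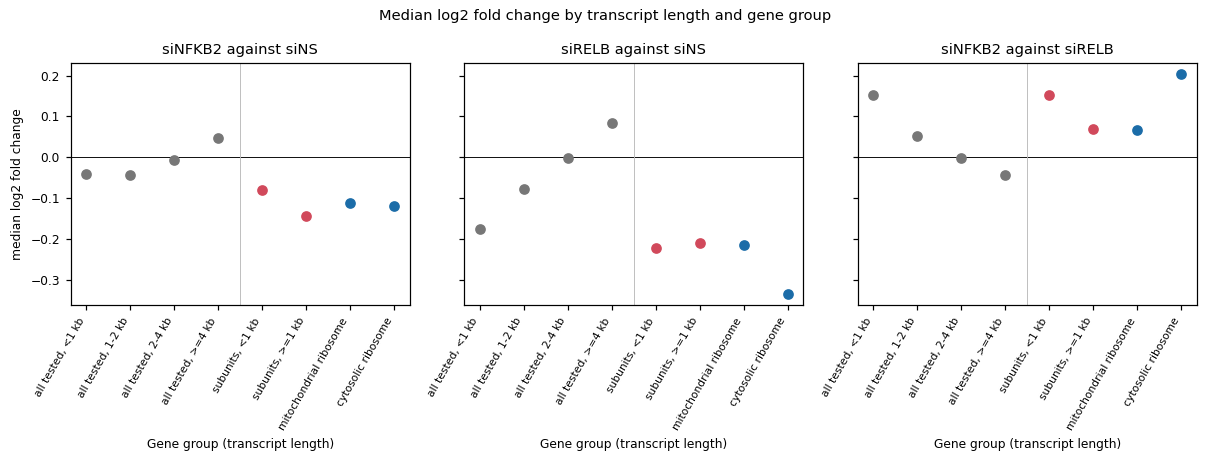
Median log2 fold change in 3 comparisons for all tested genes in 4 classes of transcript length (grey), for the 52 shorter and 21 longer subunit genes (red) and for the ribosomal protein genes (blue). For siRELB against siNS the grey points lie between -0.18 for the shortest genes and 0.08 for the longest, and the subunit genes lie at -0.22 and -0.21.

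Genes that serve the respiratory chain without being its subunits gave a mixed picture after NFKB2 knockdown. Of 47 tested assembly factors, 4 rose and 5 fell, with a median of -0.06; the 19.1% called compare with 26.1% of all genes tested. Among them COX14, needed for complex IV, averaged 13.8 ± 3.61 CPM in siNFKB2 and 36.7 ± 10.7 CPM in siNS (log2 fold change -1.41, edgeR adjusted p 0.00281), and ACAD9, needed for complex I, averaged 15.9 ± 2.87 and 30.7 ± 0.40 CPM in siNFKB2 and siNS (-0.95, 0.00221). ATPAF1, an assembly factor of the ATP synthase head, was also lower (-0.92, 0.00956), and UQCC1, a complex III factor, was higher (0.49, 0.00738). No assembly factor was called for siRELB. Between the knockdowns 8 were higher in siNFKB2 and 4 lower (25.5%, against 26.6% of all genes), among them NDUFAF7 (0.67, edgeR adjusted p 0.00563) and COX14 (-1.08, 0.00983). COX7A2L, a COX-related factor of supercomplexes, was higher in siNFKB2 than in siRELB (0.49, edgeR adjusted p 0.0053) and was the only call among 4 tested alternative or associated subunit forms.

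Of 20 tested regulators of these genes and of mitochondrial transcription, 2 rose and 2 fell after NFKB2 knockdown (20.0%, against 26.1% of all genes). MYC averaged 361 ± 60.1 CPM in siNFKB2 and 200.2 ± 16.1 CPM in siNS (log2 fold change 0.85, edgeR adjusted p 0.00152), TFB2M, a mitochondrial transcription factor, rose as well (0.54, 0.0167), NRF1 was at 17.9 ± 1.39 CPM in siNFKB2 and 23.8 ± 2.18 CPM in siNS (-0.41, 0.0435), and SLIRP, which stabilises mitochondrial mRNA, fell (-1.11, 0.00625). Of 17 tricarboxylic acid cycle genes 1 rose and 5 fell (35.3%), with SUCLG1 (-2.11, 0.00311), IDH2 (-2.03, 0.000482), FH (-0.76, 0.00191) and DLST (-0.57, 0.00542) leading. Of 74 genes of the mitochondrial ribosome, 1 rose and 11 fell (16.2%, median -0.11), and of 74 of the cytosolic ribosome 0 rose and 7 fell (9.46%, median -0.12). Of 20 cell division genes, 18 fell (90%, median -0.89), and the part of this shift in the subunit results was not tested. After RELB knockdown no regulator and no tricarboxylic acid cycle gene was called; 1 mitochondrial ribosomal gene was higher and 3 were lower (5.41%, against 2.02% of all genes; median -0.21), 2 cytosolic ribosomal genes were lower (2 of 74; median -0.33, with 74 of 74 below 0), and AURKA was the only cell division gene called (-0.81, edgeR adjusted p 0.0111).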

How the data were processed

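For each library the authors deposited raw counts per gene symbol. The submitters' processing notes name Trimmomatic 0.38, STAR 2.7.1a, Subread 1.6.4 and the build GRCh38.p13, with annotation and strand setting not given in the sources used here. Members and lists were chosen with earlier results of these data known. Genes were filtered with filterByExpr and scaled by TMM in edgeR 4.0.16 (R 4.3.3), 3 group means were fitted to all 9 libraries, and each contrast had a quasi-likelihood F test (glmQLFTest), with p-values adjusted by Benjamini-Hochberg over 14815 genes and called at 0.05. The common biological coefficient of variation was 0.184. SE and 95% intervals were derived from that test. Its script was tested on simulated data for calls and fold changes, but not for SE or intervals. The simulated libraries had no shifts shared among genes, unlike these libraries. CPM per kb used the median protein-coding transcript length of GENCODE 29. Within groups every pair of libraries differed beyond sampling noise (chi-square per degree of freedom 3.13 to 75.9), so all were counted as samples. Symbols with placement suffixes (5005 entries of 2652 genes) were kept apart. The 21 alternative fits cover scaling, DESeq2 1.42.0, filters, libraries, a replicate term, GC and length, mitochondrial rRNA and placements. Named genes are both targets, members called, the highest and lowest member of each complex, the 5 largest and smallest fold changes, paralogs, and up to 4 genes per other list. UQCRC2, UQCRH, COX8A, NDUFS5, NDUFA10, NDUFV1, NDUFB6, UQCR10, ATP5F1C, SDHB after RELB knockdown, the genes called in alternative fits and those with too few counts were named after their values were seen. Promoters are RefSeq sequences of GRCh38.p14.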

Additional observations from a re-analysis of the deposited data

Results flagged for a closer look

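The response of 2 members differed between the knockdowns in a direct test. The log2 fold change of siNFKB2 against siRELB was 0.89 for ATP5MC1 (0.17 for siNFKB2 and -0.72 for siRELB, each against siNS) and -0.44 for UQCRFS1 (-0.53 for siNFKB2 and -0.09 for siRELB, each against siNS); both knockdowns share the siNS libraries in the values given in parentheses. The UQCRFS1 call was lost without siNFKB2 replicate 2 or 3 or siRELB replicate 2 or 3 (adjusted p 0.0555 to 0.070), and the ATP5MC1 call was kept in all 21 alternative fits.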

How the results depend on the processing

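Shares in parentheses are of all genes called in the same fit. For siNFKB2 against siNS, 5 members were called (26.1%); the count was 2 without a filter (14.3%), 1 with only the 6 libraries compared (18.5%), 8 with the GC and length trend removed, 1 of them higher (33.8%), 16 with mitochondrial rRNA as a covariate (40.4%), 17 without the 3 libraries numbered 1 (44.9%), and 1 to 14 (14.6% to 32.3%) on leaving out each library. For siRELB against siNS, 0 were called (2.02%); the count was 1 with upper-quartile scaling (2.20%), without a filter (1.67%) or at a mean of at least 5 CPM (2.66%), 3 with DESeq2 (6.01%) or the rRNA covariate (8.95%), 2 with the GC and length trend removed (5.11%), 27 without the libraries numbered 1 (22.7%), and 0 to 17 (0.0986% to 12.0%) on leaving out each library. For siNFKB2 against siRELB, 2 were called (26.6%); the count was 4 with RLE scaling (26.5%), 5 with DESeq2 (25.8%), 8 with only the 6 libraries (30.8%) or with the rRNA covariate (35.6%), 14 with the GC and length trend removed (35.4%), 19 without the libraries numbered 1 (44.1%), and 1 to 9 (14.4% to 32.4%) on leaving out each library. Besides the 4 libraries named with them, calls for siNFKB2 against siNS were lost without siNFKB2 replicate 3 (adjusted p 0.0979 for ATP5PO, 0.0791 for NDUFV2, 0.136 for SDHA), siNFKB2 replicate 1 (0.079 for NDUFV3), siRELB replicate 1 (0.0519 for NDUFV3, 0.052 for SDHA) and siRELB replicate 2 (0.056 for ATP5PO, 0.0608 for NDUFV3, 0.0655 for SDHA). The medians ranged over all alternatives from -0.22 to 0.04 for siNFKB2, -0.34 to -0.08 for siRELB and 0.00 to 0.16 between the knockdowns. The causes were not tested.

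The replicate numbers were not taken to pair the libraries: deviations of same-numbered libraries correlated at 0.535 to 0.594 for number 1, but at 0.055 to 0.376 for number 2 and 0.044 to 0.45 for number 3, and not every library correlated best with its own number. With the replicate block the counts were 11, 6 and 20 in the 3 comparisons (40.1%, 10.6% and 40.9% of all genes), and with the block and the GC and length trend removed 16, 4 and 19 (43.7%, 13.5% and 46.3%). The 6 for siRELB against siNS include ATP5MC1 (adjusted p 0.0055), SDHB (0.0142) and NDUFB10 (0.0242).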
